A study of Mus musculus with 4 samples.

Results

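The promoters of non-coding genes that were open in mouse muscle were described from lists of ATAC-seq peaks, which mark DNA accessible to the Tn5 transposase. A peak was counted when the deposited annotation placed it at a promoter, in the window between 1 kb before a transcription start site (TSS) and 100 bp after it, and when the gene of its nearest TSS had a type other than protein-coding. Genes whose names begin with Mir and a digit were left out. The rule gave 402 EDL, 449 Quad, 392 Sol and 348 Dia peaks, in all 1591 of 120839 peaks. Joined across muscles wherever peaks overlapped by at least 1 bp, they formed 602 of 53883 open regions and belonged to 572 genes. The promoter annotation itself named a coding transcript at 92 EDL (22.9%), 107 Quad (23.8%), 88 Sol (22.4%) and 79 Dia (22.7%) peaks. Such peaks are members because the gene of their nearest TSS was non-coding.

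All 4 muscles came from wild-type C57BL/6 mice, and the methods give the strain as C57BL/6J and the sex as male. They were the extensor digitorum longus (EDL), the quadriceps (Quad), the soleus (Sol) and the diaphragm (Dia). EDL and Quad are mostly fast and glycolytic, Sol is rich in slow oxidative fibers, and Dia works without pause. Each muscle had 1 list, made from whole powdered frozen tissue, and the labels call every library pooled. How many libraries or animals each list combines is not given there. Differences between muscles therefore have no replicate error here and no p-value, and the 95% intervals below cover counting error only. Whole muscle also holds vessels, nerves and connective tissue, and more nuclei of a type cannot be told apart from a more open site in each nucleus. Of 10 skeletal muscle genes fixed as markers, 9 had a promoter peak in EDL and in Quad, 8 in Sol and 6 in Dia. Of 4 endothelial markers, 3 had one in EDL and in Sol, 4 in Quad and 1 in Dia, while the 4 leukocyte, 4 adipocyte, 4 Schwann cell and 4 satellite cell markers had none in any list. Of 4 fibroblast markers, only Dcn had one, and in Sol alone. The part of these cell types in the results below was not tested.

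Long non-coding RNAs are transcribed by RNA polymerase II like messenger RNAs but encode no known protein. Many start from the same open stretch as a protein-coding gene and run in the opposite direction, so that 1 nucleosome-free promoter serves both. Others have a promoter of their own, far from any coding gene, and a few produce well-studied nuclear RNAs, imprinted antisense RNAs or the precursors of small RNAs. RNA polymerase III makes some short non-coding RNAs, such as the RNA subunits of RNase P and RNase MRP.

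The sequences of 11 of these open promoters are shown first because the results return to them. Each is 1 deposited peak, read from the GRCm38.p6 genome (mm10 coordinates) on the strand of the non-coding gene, 5′ to 3′. Capitals mark the motifs searched, on either strand: the GC box GGGCGGG, the NFY box CCAAT, the ETS motif CCGGAAG, the cyclic AMP response element TGACGTCA, the E-box CAGCTG, the AP-1 motif TGACTCA, the TATA box TATAAA and the MEF2 motif. The first pair are linc-MYH (2310065F04Rik), from the cluster of fast myosin heavy chain genes (chr11:67120714-67120902, minus strand), and Malat1, an abundant nuclear RNA (chr19:5803477-5803685, minus strand). Both peaks lay upstream of the annotated start, by 728 bp in 2310065F04Rik and by 909 bp in Malat1.
2310065F04Rik: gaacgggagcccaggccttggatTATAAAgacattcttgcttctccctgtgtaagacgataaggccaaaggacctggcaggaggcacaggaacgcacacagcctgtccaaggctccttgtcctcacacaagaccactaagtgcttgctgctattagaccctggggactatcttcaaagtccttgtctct
Malat1: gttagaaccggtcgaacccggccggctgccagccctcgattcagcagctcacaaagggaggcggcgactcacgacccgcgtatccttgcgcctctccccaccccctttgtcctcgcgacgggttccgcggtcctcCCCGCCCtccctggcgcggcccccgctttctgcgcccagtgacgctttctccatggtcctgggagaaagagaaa

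Kcnq1ot1, the paternally expressed antisense RNA of the Kcnq1 imprinted domain, opened over its start (chr7:143296522-143296730, minus strand). Nctc1 lies beside the H19 and Igf2 imprinted genes (chr7:142558529-142558735, minus strand), and Rmrp is the RNA subunit of RNase MRP (chr4:43492907-43493113, minus strand). The Rmrp peak held none of the motifs searched.
Kcnq1ot1: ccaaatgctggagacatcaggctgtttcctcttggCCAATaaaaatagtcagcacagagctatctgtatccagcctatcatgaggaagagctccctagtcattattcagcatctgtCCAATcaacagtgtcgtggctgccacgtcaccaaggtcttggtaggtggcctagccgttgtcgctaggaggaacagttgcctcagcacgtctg
Nctc1: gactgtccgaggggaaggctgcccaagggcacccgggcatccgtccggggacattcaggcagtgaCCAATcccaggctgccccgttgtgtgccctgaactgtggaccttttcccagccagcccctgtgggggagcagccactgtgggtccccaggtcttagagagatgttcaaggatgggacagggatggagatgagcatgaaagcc
Rmrp: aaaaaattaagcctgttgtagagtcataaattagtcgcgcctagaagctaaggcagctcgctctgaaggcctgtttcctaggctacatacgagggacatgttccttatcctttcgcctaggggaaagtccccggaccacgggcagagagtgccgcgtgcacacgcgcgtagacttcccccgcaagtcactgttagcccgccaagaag

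1110020A21Rik stood near the top of every list and starts back to back with the phosphatase gene Ppm1b (chr17:84957710-84957898, minus strand). D130017N08Rik (chr5:143758135-143758343, plus strand) and Gm19510 (chr15:59795780-59795988, minus strand) ranked higher in EDL and Quad than in Sol and Dia. C920006O11Rik (chr9:78175783-78175991, plus strand) had this peak in EDL and Quad only. E030011O05Rik (chr9:96752678-96752884, minus strand) and 9330159M07Rik (chr9:88858876-88859082, minus strand) ranked higher in Sol and Dia.
1110020A21Rik: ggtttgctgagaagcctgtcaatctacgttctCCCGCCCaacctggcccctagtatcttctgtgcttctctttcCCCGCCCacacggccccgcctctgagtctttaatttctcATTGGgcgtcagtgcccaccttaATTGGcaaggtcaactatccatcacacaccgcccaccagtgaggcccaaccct
D130017N08Rik: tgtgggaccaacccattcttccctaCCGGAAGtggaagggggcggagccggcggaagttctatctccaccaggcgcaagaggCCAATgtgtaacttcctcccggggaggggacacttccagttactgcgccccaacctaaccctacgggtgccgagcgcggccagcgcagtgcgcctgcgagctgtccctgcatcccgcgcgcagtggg
Gm19510: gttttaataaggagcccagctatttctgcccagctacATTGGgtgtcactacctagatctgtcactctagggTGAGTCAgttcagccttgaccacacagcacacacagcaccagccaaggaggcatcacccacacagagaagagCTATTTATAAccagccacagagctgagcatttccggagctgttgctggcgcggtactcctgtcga
C920006O11Rik: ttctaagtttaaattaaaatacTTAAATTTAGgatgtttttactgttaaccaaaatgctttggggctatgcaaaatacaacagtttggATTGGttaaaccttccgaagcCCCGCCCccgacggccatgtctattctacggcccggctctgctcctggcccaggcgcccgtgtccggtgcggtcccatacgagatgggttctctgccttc
E030011O05Rik: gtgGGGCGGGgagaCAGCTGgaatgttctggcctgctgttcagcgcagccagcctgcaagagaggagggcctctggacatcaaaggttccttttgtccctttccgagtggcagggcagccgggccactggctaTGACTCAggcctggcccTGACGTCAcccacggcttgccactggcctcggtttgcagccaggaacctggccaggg
9330159M07Rik: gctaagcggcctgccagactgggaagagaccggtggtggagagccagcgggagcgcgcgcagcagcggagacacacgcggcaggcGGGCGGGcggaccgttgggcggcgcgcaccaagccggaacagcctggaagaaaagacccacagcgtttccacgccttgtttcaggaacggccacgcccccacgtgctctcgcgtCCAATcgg

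Non-coding genes held a small and similar part of the open promoters of each muscle. They made up 4.34% of promoter peaks in EDL (95% Wilson interval 3.95 to 4.78, 402 of 9259) and 4.36% in Quad (3.98 to 4.77, 449 of 10293). The share was 4.27% in Sol (3.88 to 4.71, 392 of 9173) and 3.91% in Dia (3.52 to 4.33, 348 of 8908). The intervals of the 4 muscles overlap, so no difference between muscles was resolved. Most peaks were typed ncRNA in the deposited annotation, with 371 for EDL, 421 for Quad, 364 for Sol and 318 for Dia. Pseudogenes gave 26, 24, 25 and 27 in that order, and the rest were small nucleolar or small nuclear RNA genes.

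Current RefSeq records matched 570 of the 572 genes and typed 520 as lncRNA and 32 as transcribed pseudogenes. It typed 7 genes as protein-coding, namely 0610012G03Rik, 1500011K16Rik, 1810058I24Rik, BC029722, Btbd19, Gm10033 and Mfsd4b4. These 7 stayed in, because the rule follows the deposited gene type. The peaks sat close to the start, with median distances of -40.5 bp (EDL), -55 bp (Quad), -44 bp (Sol) and -39 bp (Dia), where negative values are upstream. Between 57.0% (Quad) and 63.8% (Dia) of them lay within 100 bp of it.

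The non-coding promoters were of 2 kinds that differed in most measurements. The start of a coding transcript of another gene lay within 1 kb of the peak centre at 44.9% of peaks in EDL (40.1 to 49.8, 180 of 401 peaks on assembled chromosomes), 44.6% in Quad (40.1 to 49.3), 45.3% in Sol (40.4 to 50.2) and 45.8% in Dia (40.7 to 51.1). Nearly all of these neighbours ran on the opposite strand, which held for 173 of 180 EDL peaks, 191 of 200 Quad peaks, 168 of 177 Sol peaks and 153 of 159 Dia peaks. Counted once per region and non-coding transcript, there were 284 pairs of a non-coding start and an opposite-strand coding start. In 226 of these pairs (79.6%) the 2 transcripts pointed away from each other without overlap. The median gap between their starts was 135.5 bp (quartiles 82.5 and 247.25). In the other 58 pairs the start regions overlapped. Peaks without a coding start within 1 kb are called stand-alone below.

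The sequence around the peaks separated the kinds as well. A peak was called CpG-rich when the 500 bp around its centre had at least 50% G and C and an observed-to-expected CpG ratio of at least 0.6, the composition of most housekeeping promoters. In EDL 65.8% of the non-coding peaks were CpG-rich against 79.9% of coding promoter peaks (Quad 78.9%, Sol 80.6%, Dia 81.7%), a difference of -14.1 percentage points (95% Newcombe interval -18.9 to -9.52). The differences were -18.4 in Quad (-23.1 to -13.9), -15.9 in Sol (-20.9 to -11.3) and -14.0 in Dia (-19.2 to -9.24). Peaks beside a coding start were CpG-rich in 87.8% (EDL), 83.5% (Quad), 86.4% (Sol) and 84.3% (Dia) of cases. Stand-alone peaks reached 48.0%, 41.9%, 46.7% and 53.7% in that order. The lower share of CpG-rich sequence was thus found in the stand-alone promoters. The values beside a coding start were above the coding level in every list, but this was resolved only in EDL (95% interval 82.2 to 91.8). The intervals in Quad (77.7 to 88.0), Sol (80.6 to 90.7) and Dia (77.8 to 89.1) included the coding level.

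Peak scores followed the same split. The score is a normalized tag count, and its percentile is the place of a peak among all peaks of its own list from 0 to 100. The non-coding peaks had median percentiles of 71.8 (95% interval 66.4 to 75.8, EDL), 78.9 (74.0 to 81.7, Quad), 72.7 (69.3 to 75.7, Sol) and 70.7 (66.2 to 74.1, Dia). Coding promoter peaks had medians of 76.3, 81.3, 76.2 and 74.1. Beside a coding start the medians were 80.1 (74.9 to 86.0), 85.8 (83.3 to 88.7), 80.8 (75.2 to 83.1) and 76.8 (74.1 to 84.8). Stand-alone peaks had medians of 62.5 (54.4 to 69.0), 69.8 (65.8 to 74.0), 63.9 (57.0 to 71.6) and 58.4 (54.2 to 64.2), and in no muscle did their interval reach that of the other kind. The Quad values ran high in every class beside a list of 40337 peaks, while EDL had 30136, Sol 28784 and Dia 21582.

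**Figure D1:**
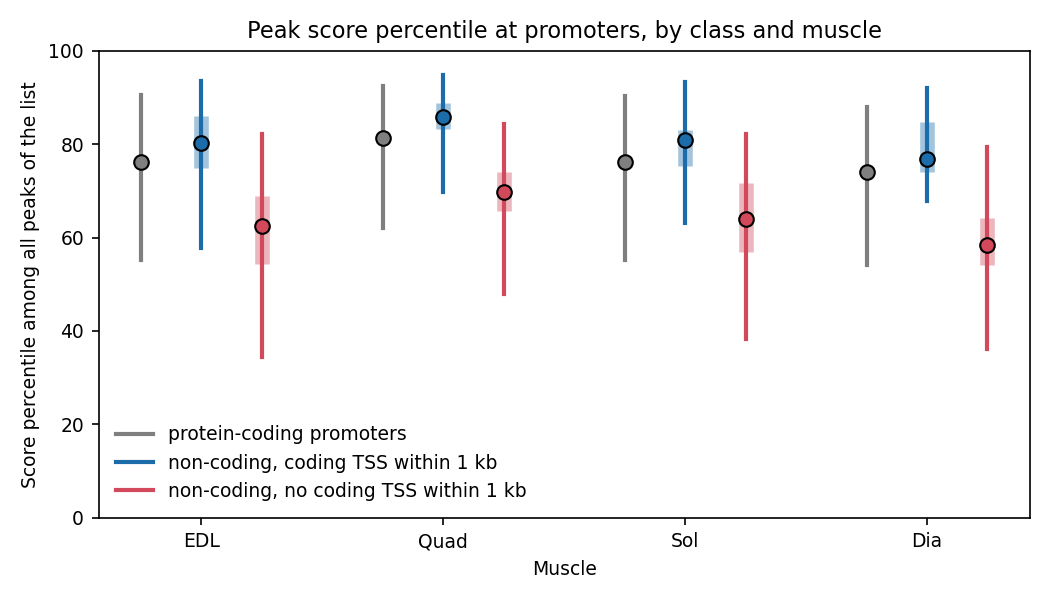
Median score percentile (points, y axis, 0 to 100) with its 95% interval (broad bars) and quartiles (thin bars) for 3 classes of promoter peaks in each muscle (x axis). In all 4 muscles stand-alone non-coding promoters have the lowest median, between 58.4 and 69.8.

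Measured against the coding promoter peaks of the same list, the muscles had like values. The median non-coding peak scored above 43.7% (36.9 to 49.2, EDL), 45.6% (38.2 to 50.7, Quad), 45.3% (40.8 to 49.6, Sol) and 44.7% (38.7 to 50.1, Dia) of the coding promoter peaks. For peaks beside a coding start the values were 55.9%, 58.7%, 57.2% and 54.4%, and for stand-alone peaks 32.7%, 32.7%, 34.3% and 29.0%. This scale was added after the percentiles had been seen.

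The highest-scored members were taken from the 232 regions with a non-coding peak in all 4 lists, so that their sharing was fixed by the choice. Ordered by mean percentile, the top was Pisd-ps3, a pseudogene of a phosphatidylserine decarboxylase gene on an unplaced scaffold, with scores of 66.4 (EDL), 76.5 (Quad), 68 (Sol) and 78.3 (Dia). It outscored every coding promoter peak in all 4 lists. Its reads could also come from copies of the same gene, so its level is uncertain. Next was 1110020A21Rik with scores of 38.1, 37.9, 37.3 and 34.9 in EDL, Quad, Sol and Dia, or percentiles of 99.9 in each. Its sequence above, the Quad peak, holds 2 GC boxes and 2 NFY boxes. The highest peak of its region, which is not the one shown, lay 293 bp from the start of Ppm1b. A cyclic AMP response element was found in the 200 bp around the highest peak. 4932412D23Rik, a stand-alone gene 31836 bp from the nearest coding start (Zbtb20), followed with scores of 38.3, 40.1, 36.5 and 32.3.

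Of the 10 leading regions of this kind, 6 had a coding start close by on the opposite strand. Apart from 1110020A21Rik these were Gm7008 beside Ifrd1 (173 bp), 3110056K07Rik beside Arid4a (244 bp), 4930483J18Rik beside Mrtfa (89 bp), 1700102H20Rik beside Tfb1m (135 bp) and Gm20753 beside Phlpp1 (479 bp). Mrtfa encodes a coactivator of serum response factor, and Tfb1m a mitochondrial ribosomal RNA methyltransferase. The stand-alone leaders also included 1810026B05Rik, known as Chaserr, upstream of the chromatin remodeller gene Chd2, with percentiles between 99.1 and 99.5. 1700113A16Rik, 35707 bp from Mef2d, lay between 98.4 and 99.5. The percentiles of the 10 regions spanned at most 1.08 points between muscles. With no requirement of a non-coding peak in all 4 lists, 5 more regions had a mean percentile above the lowest of the 10. They were 2700012I20Rik beside Sin3a, Gm15612, BC031361, BC037704 beside Slc25a28 and A530072M11Rik, each with a coding start on the opposite strand. Of these, 3 were open in all muscles, with 2700012I20Rik at 99.9 in each, and 8 of the 10 highest regions then had a coding start on the opposite strand.

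Non-coding promoters were less often open in all muscles than coding ones, and far more often than open regions as a whole. A peak in all 4 lists was found at 358 of 602 regions, or 59.5% (55.5 to 63.3). It was found at 66.6% of 11084 coding promoter regions and 26.9% of all 53883 regions. Here and below, 121 regions with both a non-coding and a coding promoter peak count as non-coding and are left out of the coding class. How far this choice moves the comparison was not tested. The difference to coding promoters was -7.11 percentage points (-11.2 to -3.16). When each list was limited to its 20000 top-scored peaks it was -4.03, and its interval (-8.42 to 0.20) then included no difference. A further 65 regions were open in 3 muscles, 78 in 2 and 101 in 1.

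Promoters beside a coding start were open in all muscles more often than stand-alone ones. Of the former 203 of 286 were open in all 4 muscles (71.0%, 65.5 to 75.9), of the latter 154 of 315 (48.9%, 43.4 to 54.4), a difference of 22.1 points (14.3 to 29.5). Against coding promoters the stand-alone class was lower by 17.7 points (interval of the signed difference -23.2 to -12.1), and the class beside a coding start differed by 4.40 (-1.18 to 9.43). CpG-rich regions were open in all muscles in 74.7% of cases (70.0 to 78.9, 272 of 364) and others in 35.9% (30.0 to 42.2, 85 of 237). A region entered these classes when at least 1 list had a member peak there. Regions with peaks in more lists thus had more chances to enter, above all beside a coding start. How far this rule sets the differences was not tested.

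Among CpG-rich regions the neighbour made no resolved difference, with 75.1% (181 of 241) beside a coding start and 74.0% (91 of 123) stand-alone, 1.12 points apart (-7.94 to 10.9). Among regions that were not CpG-rich it was 48.9% (22 of 45) against 32.8% (63 of 192), 16.1 points apart (0.52 to 31.5). The 34 regions of pseudogenes were open in all muscles in 25 cases, and 29 of the 49 regions of genes named as antisense or opposite-strand transcripts were.

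**Figure D2:**
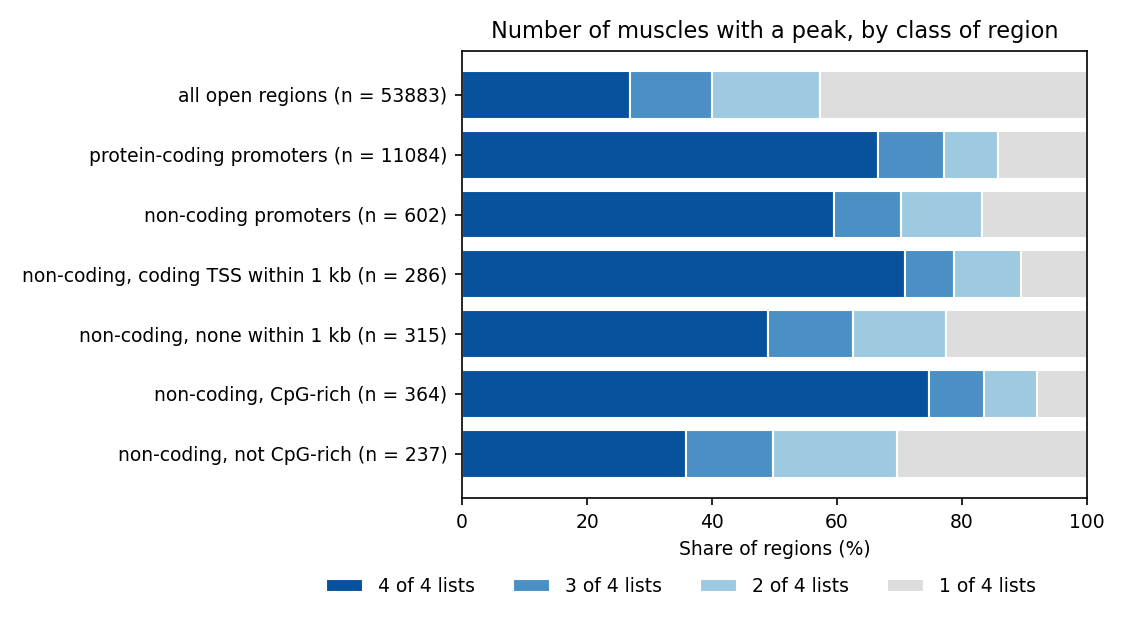
Share of regions (x axis, %) with a peak in 4, 3, 2 or 1 of the 4 muscle lists, for all open regions, coding promoters and classes of non-coding promoters (y axis, with the number of regions). The dark bar for all 4 lists reaches 74.7% in CpG-rich non-coding promoters and 35.9% in those that are not.

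Openness of a region and the gene named in a list were not the same thing. Of the 358 regions open in all muscles, only 232 had a non-coding peak in all 4 lists, while 36 had one in 3 lists, 41 in 2 and 49 in 1. In the remaining lists the peak at the same place was given to another annotation, and 121 regions held both a non-coding and a coding promoter peak. By gene, 236 had a member peak in 4 lists, 91 in 3, 106 in 2 and 139 in 1. Of the 336 genes missing from at least 1 list, 131 had a region open in all 4. Tug1, a conserved lncRNA divergent from Morc2a, is an example: its peak was assigned to Tug1 in EDL and Dia only, yet the region had percentiles of 93.0, 92.6, 90.7 and 89.7 in EDL, Quad, Sol and Dia. A gene missing from a muscle therefore does not mean a closed promoter, and regions were compared below.

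Where regions were shared by a pair of muscles, their scores had nearly the same order. Spearman's rho across non-coding regions ranged from 0.897 (EDL and Dia, 381 regions) to 0.922 (EDL and Sol, 407 regions), and for coding promoters from 0.905 to 0.923. These are descriptions across regions, which share libraries and base composition and are not replicates. Of the regions open in either muscle, 77.3% were open in both EDL and Quad, 77.4% in EDL and Sol and 76.1% in Sol and Dia, against 72.6% in Quad and Dia, 72.8% in EDL and Dia and 73.5% in Quad and Sol.

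Well-known non-coding RNAs were followed by name. Of 37 listed nuclear and general lncRNAs, 14 had a member peak, and 10 of these had a region open in all 4 muscles, with a median of mean percentiles of 77.8. Over the 571 genes that name a region, 356 (62.3%) had one open in all 4 and the median was 67.9. Xist, Neat1, H19, Meg3, Rian and Terc, from this and the lists below, had no member peak, which says only that no promoter peak was assigned to them. Malat1 had scores of 15.5 (EDL), 14.7 (Quad), 13.1 (Sol) and 14.2 (Dia), or percentiles of 90.2, 89.0, 84.8 and 85.4. Gas5, a growth-arrest transcript that hosts small nucleolar RNAs and lies head to head with Zbtb37, had percentiles of 93.8, 96.8, 92.0 and 95.7 in the same order. Both were among the more open sites of every muscle.

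Dancr, a lncRNA linked to the maintenance of undifferentiated cells, had percentiles of 95.9 (EDL), 97.8 (Quad), 93.3 (Sol) and 96.5 (Dia). Trp53cor1, the p53-induced lincRNA-p21 upstream of Cdkn1a, stood at 87.2, 85.3 and 88.8 in EDL, Quad and Sol and at 56.8 in Dia. Dnm3os, the precursor of the miR-199a and miR-214 microRNAs, stood at 60.3, 70.5 and 51.9 and at 25.0 in Dia. For both genes Dia was the lowest of the 4 muscles. Carmn, a lncRNA of heart and smooth muscle that hosts the miR-143 and miR-145 microRNAs, had a region open in all 4 muscles at 87.2, 89.6, 86.1 and 77.6. Firre, an X-linked lncRNA, had 76.4 in Quad but 33.0 in EDL, 33.4 in Sol and 41.7 in Dia. Jpx, which lies next to Xist, was low where present (48.0 in Quad, 34.6 in Sol, 21.7 in Dia) and had no peak in EDL. Fendrr, divergent from the transcription factor gene Foxf1, and the lncRNA gene Halr1 had peaks in EDL, Quad and Sol between percentiles 4.7 and 34.4 and none in Dia.

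Of 12 listed genes in or beside imprinted domains, 3 had a member peak. Kcnq1ot1 scored 19.2 (EDL), 14.5 (Quad), 12.3 (Sol) and 13.3 (Dia), or percentiles of 94.6, 88.5, 82.3 and 83.0, and its sequence above has 2 NFY boxes. Airn, the antisense RNA of Igf2r, stood at 67.8 in EDL, 88.5 in Quad and 68.6 in Sol, with no peak in Dia. Nctc1 had a peak in Quad (82.9) and Sol (88.0) only.

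Of 17 listed muscle lncRNAs, 3 had a member peak. 2310065F04Rik, or linc-MYH, scored 16.4 (EDL), 17.4 (Quad), 13.4 (Sol) and 8.96 (Dia), or percentiles of 91.5, 92.7, 85.6 and 62.1. EDL and Quad were the highest and Dia was lowest by more than 20 points. 1810058I24Rik encodes the mitochondrial micropeptide mitoregulin and is one of the genes now typed as coding. Its score was highest in Sol, with 6.73 (EDL), 7.81 (Quad), 10.1 (Sol) and 7.96 (Dia), or percentiles of 47.6, 61.1, 72.7 and 54.2. By percentile Quad stood above Dia. Airn, described above, was the other listed gene.

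The genes of small structural RNAs and their hosts gave 21 members, 15 of them with a region open in all 4 muscles. Rmrp stood at percentiles of 95.9 (EDL), 97.0 (Quad), 97.4 (Sol) and 94.5 (Dia). Rpph1, the RNA subunit of RNase P, stood at 90.8, 94.5, 96.3 and 92.4. Both had a coding start on the opposite strand, Ccdc107 at 355 bp for Rmrp and Parp2 at 215 bp for Rpph1. The openness of the 2 starts cannot be told apart. Snhg8, a host of a small nucleolar RNA, stood at 94.8, 97.0, 97.5 and 92.5. Of 12 small nucleolar RNA host genes (Gas5 and those named Snhg), 10 had a region open in all 4 muscles, and the median of their mean percentiles was 79.9. Snhg17 was the least open of them, at 13.7, 55.7, 27.7 and 28.1. At Rnu11, a small nuclear RNA of the minor spliceosome, and at Snord118 the EDL and Quad peaks lay side by side with those of Sol and Dia without overlap, so that each gene had 2 regions. Their percentiles were nonetheless close, between 63.2 and 65.8 at Rnu11 and between 57.9 and 70.2 at Snord118.

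All these lists were chosen with earlier results of these data known, and their counts are a description.

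**Figure D3:**
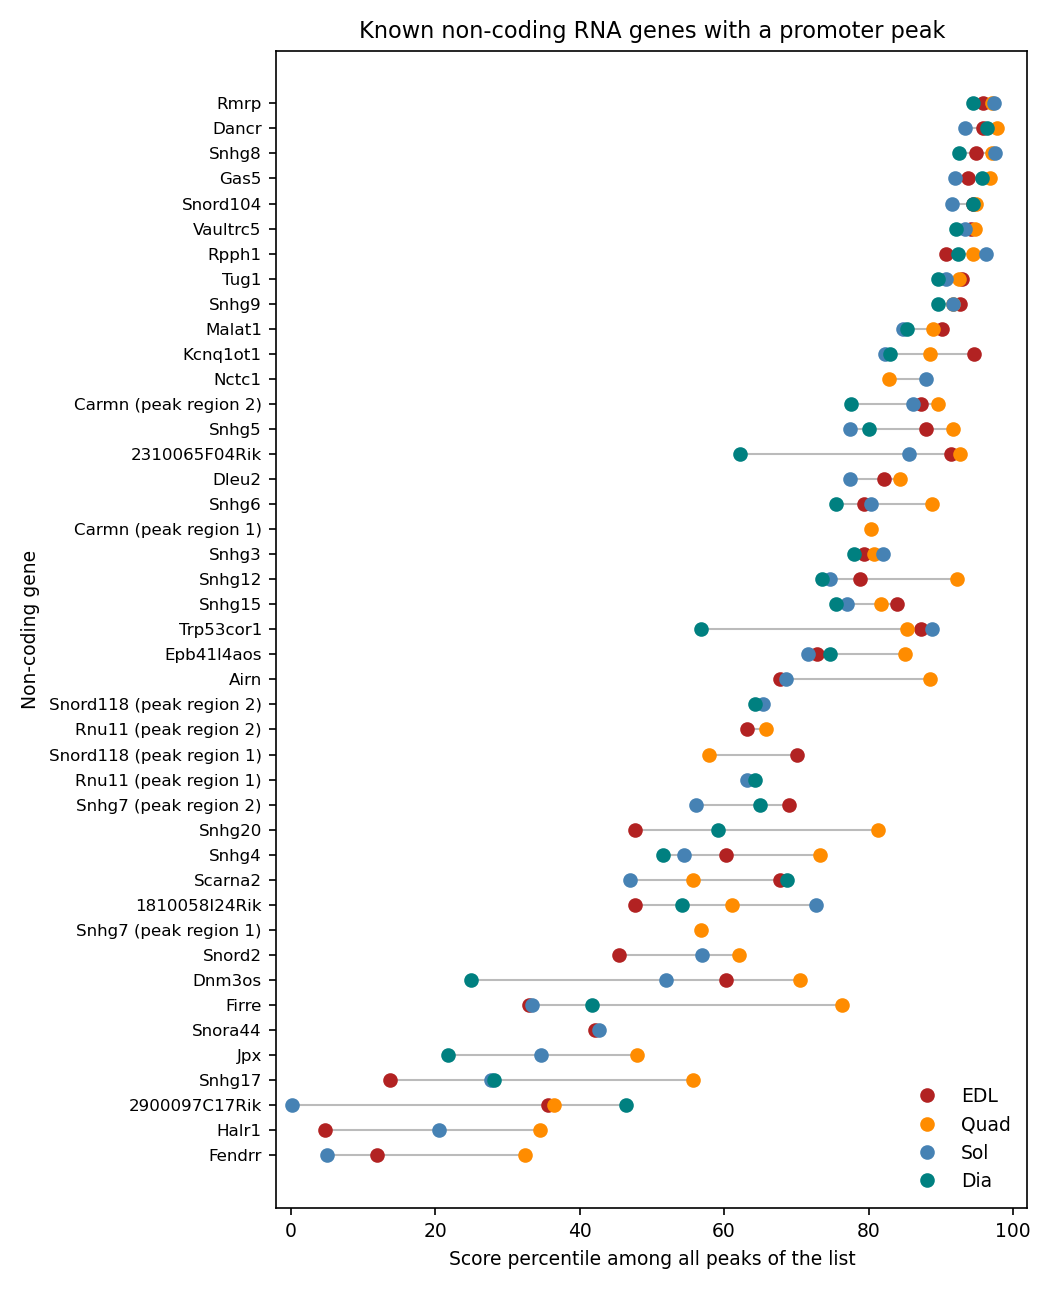
Score percentile within each list (x axis, 0 to 100) of the listed nuclear, general, imprinted-domain, muscle and small RNA genes with a promoter peak (y axis). Each muscle has 1 colored point, and a gray line runs from the lowest to the highest. Rmrp, Dancr, Snhg8 and Gas5 lie above 91 in all 4 muscles, while 2310065F04Rik, Trp53cor1 and Dnm3os fall to 62.1, 56.8 and 25.0 in Dia.

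Peaks seen in 1 muscle were few among non-coding promoters. They were 18 of 402 in EDL (4.48%, 2.85 to 6.97), beside 12.0% of all EDL peaks, and 48 of 449 in Quad (10.7%, 8.16 to 13.9), beside 30.3% of all Quad peaks. In Sol they were 21 of 392 (5.36%, 3.53 to 8.05), beside 16.1% of all peaks, and in Dia 14 of 348 (4.02%, 2.41 to 6.64), beside 11.5%. Coding promoter peaks gave 2.69%, 8.70%, 2.81% and 2.90% in the order EDL, Quad, Sol and Dia. With lists of equal length the order of the muscles changed, with 5.06% in Quad and 10.2% in Dia.

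The strongest of these peaks mostly stood next to a peak of another list. BC031361, divergent from the kinase gene Gsk3b, had the highest (score 33.9 in EDL, percentile 99.7), and a Dia peak began 3 bp away. Gm3230 had peaks in EDL (86.2) and Dia (89.8) that were 26 bp apart, and Uckl1os had peaks in EDL (73.9) and Quad (82.9) that were 147 bp apart. Another peak lay within 500 bp of 8 of the 18 EDL peaks, 12 of the 48 in Quad, 6 of the 21 in Sol and 3 of the 14 in Dia. This was not counted for the unshared peaks of coding promoters or of whole lists. These counts therefore cannot show a trait of non-coding promoters. Those with no such neighbour included 5031434O11Rik in Sol (67.9, 588 bp to the nearest Dia peak) and Bcas3os2 in Dia (34.1, 8988 bp to the nearest EDL peak). The median percentile of the unshared peaks was 38.9 (EDL), 38.2 (Quad), 19 (Sol) and 26.4 (Dia), well under that of all non-coding peaks.

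Regions open in the mostly fast pair or in the more oxidative pair of muscles were also counted. EDL and Quad alone shared 30 regions, or 4.98% (3.51 to 7.02), beside 8.05% of all regions and 2.42% of coding promoter regions. Sol and Dia alone shared 7, or 1.16% (0.56 to 2.38), beside 1.20% of all regions and 0.70% of coding ones. The highest of the first set was the C920006O11Rik region shown above, with percentiles of 86.0 in EDL and 89.6 in Quad. Close by, another region of the same gene (chr9:78175281-78175513) was open in all 4 muscles at 81.1, 86.5, 87.8 and 86.4. Next in the first set were Gm16537 beside Cox14, a gene for cytochrome oxidase assembly (86.0 and 86.2), and Ggnbp2os beside Ggnbp2 (80.3 and 89.0). The highest of the second set was 6330415G19Rik, at 69.3 in Sol and 79.1 in Dia. The same gene had a separate region directly beside it, open in EDL (75.8) and Quad (83.6), so that its promoter had a peak in all muscles.

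Within the 14497 regions open in all muscles, each list has the same number of ranks, a measure chosen after the percentiles had been seen. Both EDL and Quad ranked above both Sol and Dia at 51 of the 358 non-coding regions (14.2%, 11 to 18.2), beside 16.6% of all 14497 regions. Both Sol and Dia ranked above at 60 (16.8%, 13.2 to 21), beside 17.4%. Both shares are near those of all shared regions. The gap is the distance between the lower rank of one pair and the higher rank of the other. It was more than 10 points toward EDL and Quad at 5 regions (1.40%, 0.60 to 3.23), beside 4.40% of all shared regions. Toward Sol and Dia it was so at 12 (3.35%, 1.93 to 5.77), beside 3.35% of all. The median range of ranks over the 4 muscles was 15.7 points (14.1 to 17.8), against 15.2 for coding promoters and 18.7 for all shared regions.

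Single promoters with a wide gap are named as a description. 2610316D01Rik, divergent from the protocadherin gene Pcdh10, had ranks of 37.1 in EDL and 39.0 in Quad against 5.54 in Sol and 18 in Dia. D130017N08Rik, whose sequence above holds an ETS motif and an NFY box, had ranks of 43.9 and 45.0 against 25.0 and 11. A030001D20Rik lies 1078 bp from Mamstr, which encodes a coactivator of MEF2 factors, and had ranks of 86.5 and 83.4 against 69.5 and 69.9. The other regions with a gap of more than 10 points were 6030443J06Rik beside Orc5 (13.0) and the pseudogene Cyp4f41-ps (12.2). The next gaps were found at Dnm3os (9.48), Gm19510 (9.10) and Gm9054 (8.32). The sequence of Gm19510 above holds a MEF2 motif and an AP-1 motif, and its ranks were 72.6 and 65.4 against 56.3 and 26.8. At 2310065F04Rik the gap was 7.60, with ranks of 83.1 and 80.8 against 73.2 and 48.2.

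Toward Sol and Dia, E030011O05Rik had the widest gap, with ranks of 8.87 in EDL and 4.58 in Quad against 43.1 in Sol and 40.7 in Dia, and scores of 5.29, 5.12, 9.08 and 8.16. Its sequence above holds a cyclic AMP response element and an AP-1 motif. 9330159M07Rik had ranks of 33.5 and 35.9 against 61.1 and 69.4, and Phtf1os, divergent from Phtf1, had 38.9 and 40.1 against 58.4 and 58.7. 1810058I24Rik, the mitoregulin gene, had 22.1 and 24.7 against 52.5 and 38.7. Next by gap were 2900060B14Rik (13.1), the pseudogene Zfp133-ps (13.0), 4933421O10Rik (12.8), 4833427F10Rik (12.7) and 4930509E16Rik (11.5). The C920006O11Rik region open in all 4 muscles, close to its region open in EDL and Quad only, had 64.9 and 66.1 against 77.1 and 80.5. How far such gaps exceed the spread between libraries of 1 muscle was not tested.

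**Figure D4:**
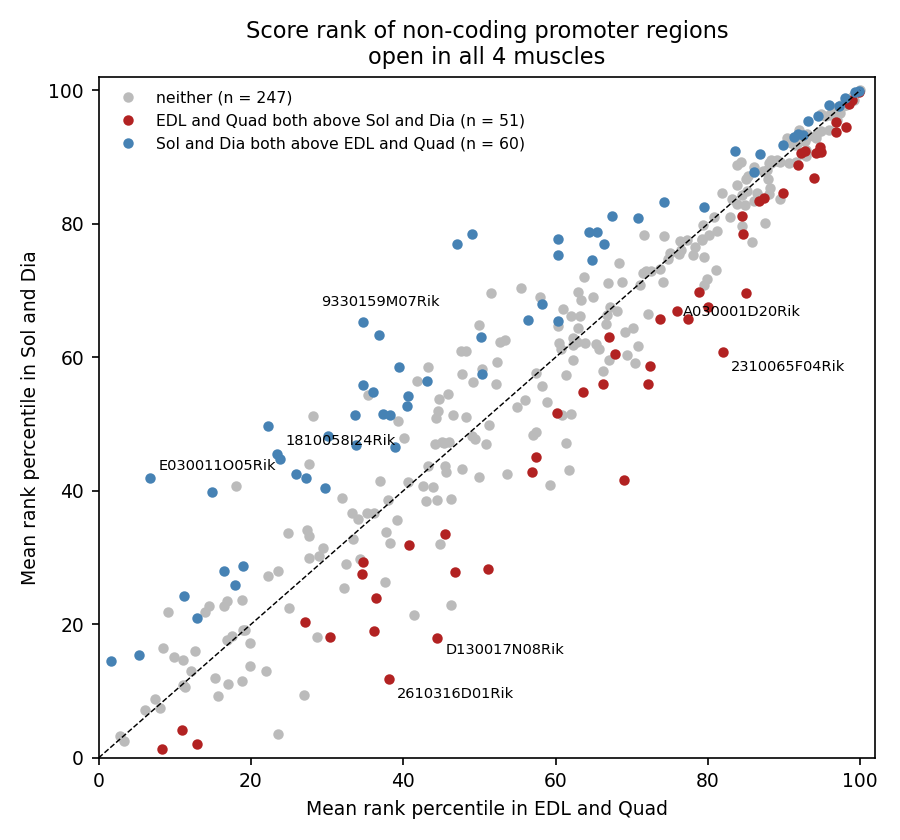
Rank percentile of score among regions open in all 4 muscles, mean of EDL and Quad (x axis) against mean of Sol and Dia (y axis), for the 358 non-coding regions (1 point each). Most points follow the dashed line of equal rank, with 51 regions ranked higher in both EDL and Quad (red) and 60 in both Sol and Dia (blue).

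The widest spread over the 4 lists did not always follow these pairs. 6820431F20Rik, typed as a pseudogene, had percentiles of 51.6 (EDL), 82.1 (Quad), 1.9 (Sol) and 57.6 (Dia). 2610016A17Rik, divergent from Dmrt2, a transcription factor gene of the early somite, had 57.9, 83.6, 66.0 and 8.0. 2310016D03Rik had 53.4 in EDL and 57.0 in Sol but 2.4 in Quad and 25.0 in Dia. In each of the 3, 1 or 2 lists stood apart from the others.

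Motifs were searched in the 200 bp around the highest peak of each region, on both strands, and a MEF2 match may overlap a TATA box. GC boxes occurred in 33.1% of non-coding promoters against 44.0% of coding ones (difference -10.9 points, -14.6 to -6.92) and 13.7% of all open regions. ETS motifs occurred in 11.8% against 15.7% (-3.85, -6.29 to -0.95), with 4.95% in all regions. The AP-1 motif was more frequent than in coding promoters, 4.16% against 2.34% (1.82, 0.46 to 3.75), and less than in all regions (7.35%). NFY boxes were found in 32.9% and 33.3% (-0.38, -4.12 to 3.57). The intervals also included 0 for the TATA box, the E-box, MEF2, YY1 (AAGATGGC), NRF1 (GCGCATGC), ZBTB33 (CTCGCGAG) and the cyclic AMP response element.

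Within the 200 bp, 5 of the 11 motifs differed in frequency between stand-alone promoters and those beside a coding start. Stand-alone promoters held the GC box in 22.9% of regions against 44.4% beside a coding start (-21.5, -28.8 to -14.0), and the ETS motif in 8.57% against 15.4% (-6.81, -12.1 to -1.63). They held the E-box, the core of MyoD binding sites, in 16.8% against 6.99% (9.83, 4.68 to 15.0) and the AP-1 motif in 6.35% against 1.75% (4.60, 1.43 to 8.0). The NRF1 motif was rarer in them, with 1.27% against 5.94% (-4.67, -8.13 to -1.73). NFY boxes, among the most frequent motifs, showed no resolved difference, with 31.1% against 35.0% (-3.85, -11.3 to 3.65), and the intervals also included 0 for YY1, ZBTB33, the cyclic AMP response element, the TATA box and MEF2. In all open regions the E-box occurred in 20.1%. MEF2 motifs were rare, with 8 of 315 stand-alone regions and 2 of 286 others (1.84 points apart, -0.36 to 4.28). The 10 regions with a MEF2 motif had no common pattern of muscles. The regions of 2310010J17Rik, 2310075C17Rik, BC025920 and Gm19510 were open in all 4 muscles, and that of A630075F10Rik in EDL, Quad and Sol. Those of C920006O11Rik and Gm16537 were open in EDL and Quad, those of 5031425F14Rik and E430016F16Rik in Quad only, and that of Mirlet7i in Sol only. A motif match is a description of the letters and not of a bound site.

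**Figure D5:**
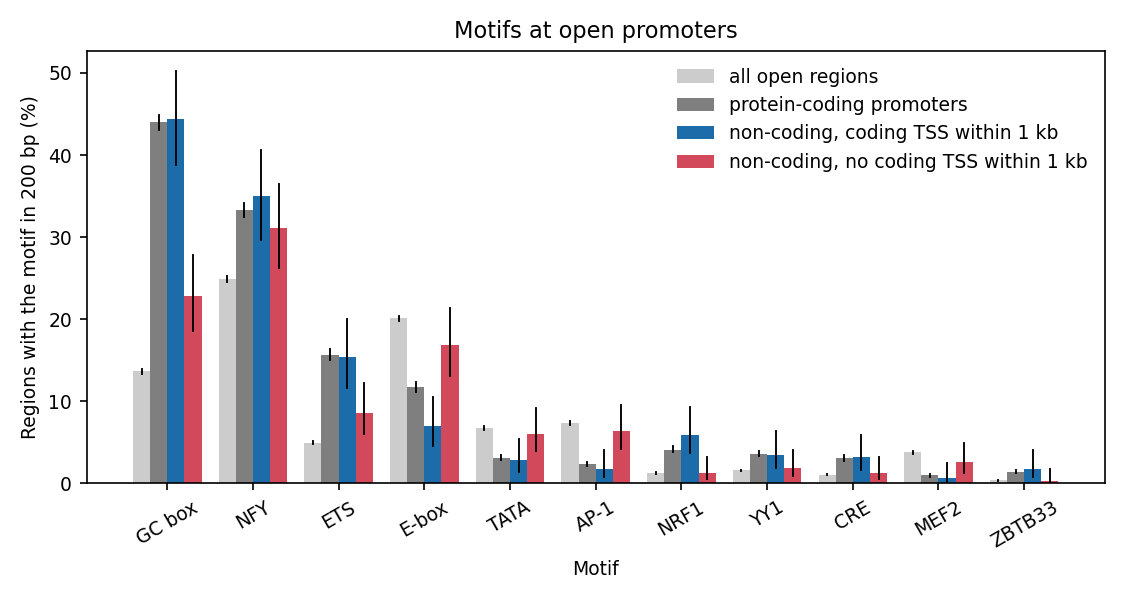
Share of regions (y axis, %, with 95% intervals as black lines) that hold each of 11 motifs (x axis) in the 200 bp around the peak centre, for all open regions and 3 classes of promoters. GC boxes fall from 44.4% beside a coding start to 22.9% in stand-alone non-coding promoters, while the E-box rises from 6.99% to 16.8%.

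Regions with some motifs were also more often open in all muscles. It was the case for 75.9% of regions with a GC box against 51.4% without (24.5 points, 16.5 to 31.8) and for 76.3% with an NFY box against 51.2% (25.0, 17 to 32.3). With an ETS motif it was 77.5% against 57.1% (20.4, 8.67 to 29.6). All 13 regions with the cyclic AMP response element were open in all 4 muscles, against 58.6% of the rest (41.4, 18.3 to 45.4). The E-box went the other way, with 45.2% against 61.4% (-16.2, -27.9 to -4.10), and so did the AP-1 motif, with 10 of 25 regions (40.0%) against 60.3% (-20.3, -37.4 to -0.63). GC boxes move with CpG-rich sequence, and the part of base composition in these differences was not tested.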

How the data were processed

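The authors deposited 1 ATAC-seq peak list per muscle, labelled pooled with no number of libraries, and the submitters' processing notes name Bowtie2 and HOMER. HOMER called fixed-width peaks for each list and annotated them to mm10. The deposited peak score is a normalized tag count, and the deposited focus ratio, a fraction, was not used. The distance to the TSS is in bp. Reads with several equally good positions can be placed at any of them. The Tn5 offset and mitochondrial filtering were not stated, and read totals were not used here. Widths were 208 bp (EDL), 188 bp (Quad), 206 bp (Sol) and 232 bp (Dia), so overlap and motif content depend in part on width.

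Members followed the annotation, and the members and lists were chosen with earlier results of these data known. Percentiles were computed within a list. A planned column on CpG islands held no values, so CpG-rich sequence was computed from the genome. Coding starts, strands and exons came from RefSeq on GRCm38.p6, and the transcript of 1560 of 1591 peaks was found there. Of these, 1555 had a start within 100 bp of the one implied by the deposited distance. Shares have Wilson intervals, differences Newcombe intervals, medians order-statistic intervals and correlations Fisher intervals, all at 95%. Genes were named by fixed lists, mean percentile, restriction to 1 muscle or a pair, range and number of peaks. The leading regions were limited to those with a member peak in all 4 lists. A list of developmental antisense genes is not reported here. Ranked gaps and motif carriers were named after their values were seen. The code was tested on simulated peaks. Python 3.11.15, pandas 2.3.3, numpy 2.4.6 and scipy 1.17.1 were used.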

Additional observations from a re-analysis of the deposited data

How the results depend on the processing

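No paired analysis was possible because each muscle had 1 list. Keeping 1 peak per gene and leaving out other chromosomes left every value within its own 95% interval. Keeping Mir genes did so except for the share of promoter peaks in EDL (4.84%) and Quad (4.82%). Searching motifs in the whole peak (188 to 232 bp) left each share in non-coding promoters within its interval. With that window the TATA box also differed between stand-alone promoters (6.03%) and those beside a coding start (2.45%), by 3.58 points (0.28 to 7.02). A reciprocal overlap of at least 50% lowered the share of non-coding regions open in all 4 muscles to 41.5% and raised the unshared shares to 8.21% (EDL), 17.6% (Quad), 9.18% (Sol) and 10.9% (Dia). Counting peaks within 500 bp as shared gave 69.8%, with 2.49% unshared in EDL and 8.02% in Quad. Under both rules the difference to coding promoters kept its sign (-7.28 and -6.29). When lists were limited to their 20000 top-scored peaks, unshared shares were 5.06% in Quad and 10.2% in Dia, median percentiles 67.0 in Quad and 66.3 in Sol, CpG-rich shares 71.6% in EDL and 68.2% in Quad, the share beside a coding start 49.9% in Quad, and rho 0.875 for EDL and Quad and 0.905 for EDL and Sol. Chosen after seeing the data, the same lists gave 22.6 points between regions beside a coding start and stand-alone ones and 32.9 between CpG-rich and other regions. With a coding start required within 500 bp, the share beside one was 37.7% (EDL), 36.2% (Quad), 38.9% (Sol) and 38.9% (Dia). Peak thresholds and widths differed between libraries, so a missing peak may be signal under a threshold or a peak centred nearby.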
